A study of Mus musculus with 17 samples.

Results

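The oligoadenylate synthetase (OAS) genes were followed through colon tumorigenesis in mice with and without a normal mast cell compartment. The 5 members were taken by symbol from the count tables (Oas1a, Oas1b, Oas1g, Oas2 and Oas3), 5 of the 988 genes of a targeted immuno-oncology panel, and all 5 had counts in every one of the 17 libraries. Oas1a, Oas1b and Oas1g are close relatives, so their counts were also added up as the Oas1 sum.

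All animals had received azoxymethane, which alkylates DNA and is widely used to raise colon tumors in rodents. There were 6 tumors from Kit-W/sh mice, 6 tumors from Kit-B6 mice, 2 preneoplastic colon samples from Kit-W/sh mice and 3 from Kit-B6 mice. Kit-W/sh (W-SASH) mice carry an inversion upstream of Kit that leaves adults short of mast cells, and Kit-B6 mice are C57BL/6 animals with normal Kit. Tumor-bearing mice were 32 weeks old, 18 weeks past a course of 6 weekly injections, whereas preneoplastic tissue came at 14 weeks of age, 3 weeks past a course of 3 injections. Stage was therefore tied to age, carcinogen dose and kind of tissue, and these cannot be told apart. The study set the genotypes against each other at both stages to examine the part of mast cells in sporadic colon tumors.

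OAS enzymes are sensors of double-stranded RNA. Once bound to it they join ATP into short 2'-5'-linked oligoadenylates, a second messenger of the antiviral response. The genes are transcribed at a low level in most cells and are strongly induced by interferon, through a factor complex that contains Irf9 and its binding element, the interferon-stimulated response element. In the intestine, both epithelial cells and leukocytes respond to interferon in this way. Oas1a and Oas1g encode active synthetases with a single OAS unit. Oas1b is known in the mouse for resistance to flaviviruses, but C57BL/6 and most other laboratory strains carry an allele with a premature stop codon, and RefSeq lists the gene as a transcribed pseudogene. Oas2 and Oas3 are larger proteins with repeated OAS units.

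RefSeq places all 5 members in a cluster on chromosome 5, in the order Oas2, Oas3, Oas1b, Oas1g, Oas1a with further Oas1 genes between them. Kit is annotated on the same chromosome, outside the cluster. In GENCODE M21 the longest coding transcripts of Oas1a (1885 bases) and Oas1g (1977 bases) were 97.5% identical over 1860 aligned bases and shared a run of 526 identical bases. Of all 50-base windows of Oas1a, 56.9% occurred unchanged in Oas1g. Oas1b was more distant, at 77.6% identity to Oas1a and 77.9% to Oas1g, with longest shared runs of 62 and 73 bases. The sources used here give no amplicon positions, so reads of Oas1a and Oas1g may have been split between them in a way that cannot be checked, and both are uncertain as single genes. Oas2 and Oas3 shared no run longer than 26 bases with each other or with Oas1a, Oas1b or Oas1g.

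Promoter sequences from RefSeq (build GRCm38.p6) were found for 3 of the 5 members. They are shown because all 3 fell between stages in Kit-B6 mice and because Oas1a and Oas1g resemble each other here too. Each is the stretch of 100 bases directly upstream of the transcription start, read 5' to 3' on the gene's own (minus) strand, and capitals mark matches to the core of the interferon-stimulated response element, GAAANNGAAA.
Oas1a, chr5:120907526-120907625: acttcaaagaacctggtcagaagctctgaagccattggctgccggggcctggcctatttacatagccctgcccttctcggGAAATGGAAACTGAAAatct
Oas1g, chr5:120887614-120887713: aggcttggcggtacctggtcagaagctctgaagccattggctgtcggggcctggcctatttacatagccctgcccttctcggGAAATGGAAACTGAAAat
Oas3, chr5:120777660-120777759: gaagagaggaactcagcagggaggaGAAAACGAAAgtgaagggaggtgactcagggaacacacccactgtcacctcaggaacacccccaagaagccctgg

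Oas1a and Oas1g each held a pair of overlapping matches, the nearer one starting 14 bases before the start of Oas1a and 12 bases before that of Oas1g. Oas3 held a single match that began 75 bases before its start. Both strands were searched over windows from 250 bases before to 50 after each start, and 1131 of 32851 RefSeq promoters (3.44%) held the motif. Among the other OAS genes searched, Oas1c held overlapping matches on the opposite strand, and Oas1f, Oas1h, Oasl1 and Oasl2 held none. Over 98 aligned bases the stretches of Oas1a and Oas1g were 92.9% identical, so they do not count as independent cases. A match describes the letters only and is no measurement of factor binding.

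Library totals of Kit-W/sh mice were 1049408 to 1262171 counts (tumors) and 621141 to 815973 counts (preneoplastic colon). Those of Kit-B6 mice were 616554 to 1399902 counts (tumors) and 616009 to 703549 counts (preneoplastic colon). Levels are given as CPM, the panel's counts scaled to a common library size by trimmed mean of M values (TMM), and 3 counts corresponded to between 2.14 and 5.5 CPM. An amplicon's level depends on its primers, so levels are compared between samples and not between genes. The epithelial gene Epcam was at 22173 to 34602 CPM in all 17 libraries, whereas Car4, of differentiated colonocytes, was at 98.5 to 14836 CPM in the tumors and 26007 to 92830 CPM in preneoplastic colon. Cpa3, a mast cell protease, reached 459.5 CPM in 1 library labelled Kit-W/sh (tumor 2). It was between 0 and 9.81 CPM in the 5 others of that group, against 11.3 to 256 CPM in Kit-B6 tumors. Member results that use that library are also given without it. In tissue of mixed cells, fewer cells of a type and less RNA per cell cannot be told apart. Nothing in the labels states that each sample was taken from its own mouse, and Kit-B6 tumors 4 and 5 carried a shared code, so the p-values speak only of the spread among samples, which may be technical.

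**Figure D1:**
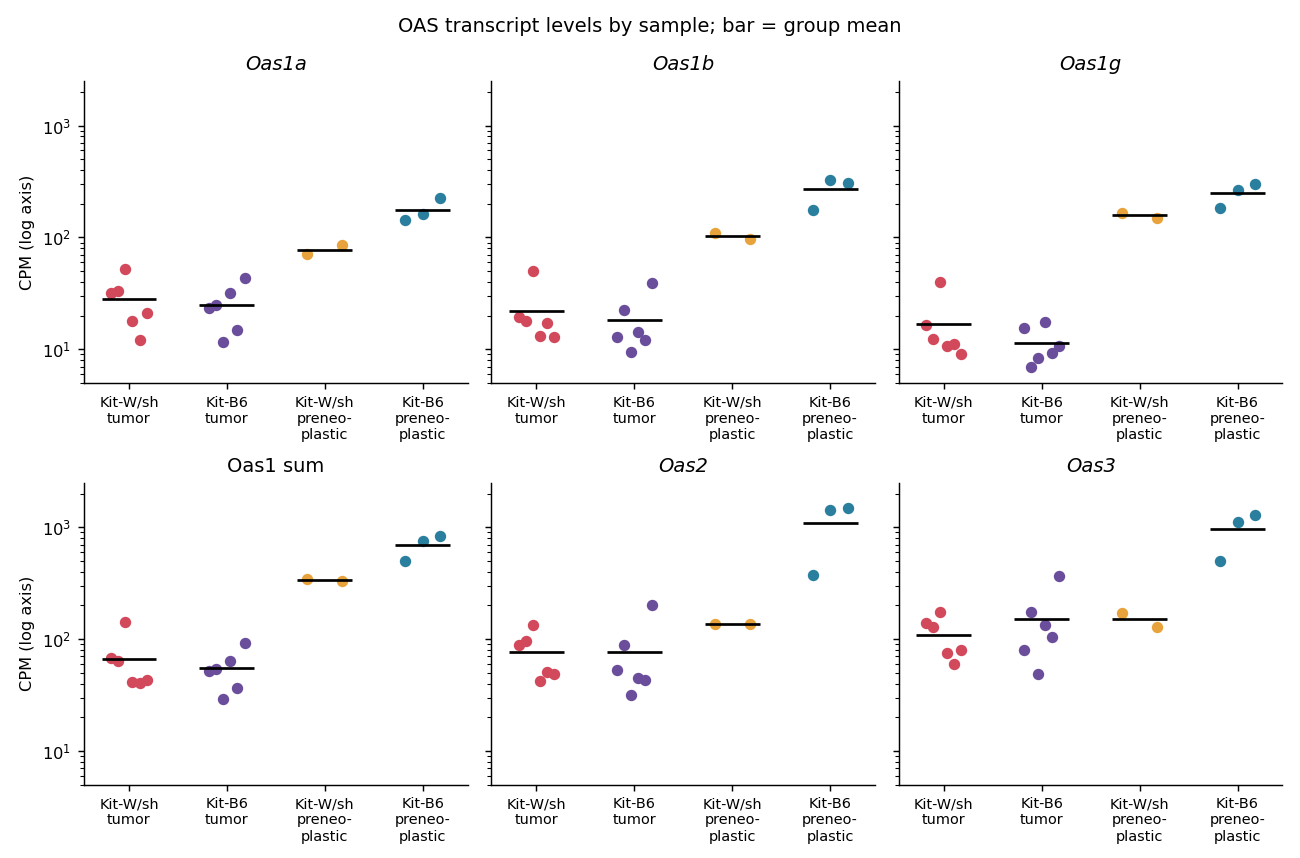
Levels of each OAS gene and of the Oas1 sum in every sample, in CPM on a log axis, with tumors of Kit-W/sh and Kit-B6 mice to the left of preneoplastic colon of Kit-W/sh and Kit-B6 mice. Each point is a library and each bar a group mean. The 3 Kit-B6 preneoplastic samples stand above every other sample in all 6 panels, and the 2 Kit-W/sh preneoplastic samples stand above the tumors for the Oas1 genes but among them for Oas3.

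In Kit-B6 mice all 5 OAS genes fell in tumors relative to preneoplastic colon, with log2 fold changes between -4.43 and -2.69. Oas1a was at 11.6 (lowest), 24.3 (median) and 43.6 CPM (highest) in the 6 Kit-B6 tumors, against 143, 163 and 223 CPM in Kit-B6 preneoplastic samples 1 to 3. The fitted log2 change was -2.82 ± 0.43 (SE; adjusted p = 0.000136 by edgeR). Oas1b was at 9.46, 13.7 and 38.9 CPM (lowest, median, highest) in the tumors, against 174, 328 and 304 CPM in the preneoplastic samples, a log2 difference of -3.88 ± 0.47 (edgeR adjusted p = 1.91e-05). For both genes the highest tumor lay far below the lowest preneoplastic sample, and preneoplastic sample 1 was the lowest of its group.

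Oas1g showed the largest change of the 5, with 6.98, 9.94 and 17.5 CPM (lowest, median, highest) in Kit-B6 tumors against 183, 263 and 301 CPM in Kit-B6 preneoplastic colon. Its log2 fold change of -4.43 ± 0.43 (edgeR adjusted p = 3.35e-06) had the third smallest p of the 869 genes tested. The Oas1 sum, which does not depend on how reads were split among the 3 genes, averaged 54.8 ± 22.6 CPM (SD, n = 6) in Kit-B6 tumors and 694 ± 172 CPM (n = 3) in Kit-B6 preneoplastic colon. Its log2 fold change was -3.66 ± 0.39, and no test was made on the sum. In counts, the sum was 28 to 79 per Kit-B6 tumor and 273 to 534 per Kit-B6 preneoplastic sample.

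The larger synthetases fell as well. Oas2 was at 31.5, 49.3 and 200.5 CPM (lowest, median, highest) in Kit-B6 tumors, against 376, 1429 and 1485 CPM in Kit-B6 preneoplastic samples 1 to 3, with a log2 difference of -3.84 ± 0.54 (edgeR adjusted p = 8.51e-05). Oas3 was at 48.3, 119 and 364 CPM (lowest, median, highest) in the tumors, against 495, 1123 and 1294 CPM, with a log2 difference of -2.69 ± 0.49 (edgeR adjusted p = 0.000531). Kit-B6 tumor 6 gave the highest tumor value for both, and for Oas3 it came nearest to the preneoplastic range without reaching it. In all, 5 of 5 members were called lower, where edgeR called 18.9% of all 869 genes lower and 22.2% higher. For 5 of 5 the groups did not overlap, which held on the lower side for 13.1% of genes. The median log2 fold change was -3.84 for the members and -0.00273 over all genes tested.

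Summed B cell markers had a lower median in Kit-B6 tumors (47.6 CPM) than in Kit-B6 preneoplastic colon (1009 CPM), but the ranges overlapped. The summed level of the 8 measured markers of 9 listed was 32.9 to 800.1 CPM in Kit-B6 tumors and 152, 2915 and 1009 CPM in Kit-B6 preneoplastic samples 1 to 3. Among the tumors, tumor 2 was at 800.1 CPM and the other 5 were at 32.9 to 55.4 CPM. With preneoplastic samples 2 and 3 left out, sample 1 stands alone and is assumed to vary like the other groups. The log2 fold changes were then -1.73 ± 0.69 for Oas3, -2.30 ± 0.70 for Oas2 and -2.52 ± 0.62 for Oas1a. They were -3.26 ± 0.64 for Oas1b and -4.0005 ± 0.57 for Oas1g. Each was smaller in size than with all 3 preneoplastic samples. These values are given as sizes only, since 1 sample shows no spread of its own. T cell markers (6 of 6 measured) summed to 169.8 to 561 CPM in Kit-B6 tumors and 552 to 1643 CPM in Kit-B6 preneoplastic colon, macrophage markers (6 of 7) to 1396 to 3399 and 1173 to 1224 CPM, and neutrophil markers (3 of 6) to 61.7 to 257 and 6.20 to 12.8 CPM. Mast cell markers (7 of 8) summed to 304 to 1288 CPM in Kit-B6 tumors and 562 to 794 CPM in Kit-B6 preneoplastic colon, where Tpsab1 was at 0. Of the epithelial list only Epcam and Car4 were measured, at a sum of 25383 to 49438 CPM in Kit-B6 tumors and 50700 to 122981 CPM in Kit-B6 preneoplastic colon. Bst2 and Irf7, the measured genes of the plasmacytoid dendritic cell list (2 of 6) and both interferon-induced, summed to 1250.4 to 4621 CPM in Kit-B6 tumors and 5199.7 to 9171 CPM in Kit-B6 preneoplastic colon, without overlap. The part of these cell types in the OAS differences was not tested.

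In Kit-W/sh mice the Oas1 genes fell in tumors relative to preneoplastic colon, and the changes of Oas2 and Oas3 did not pass the test. Oas1a was at 11.99, 26.4 and 52.1 CPM (lowest, median, highest) in the 6 Kit-W/sh tumors, against 70.5 and 85.3 CPM in the 2 Kit-W/sh preneoplastic samples, a log2 difference of -1.47 ± 0.48 (edgeR adjusted p = 0.0248). Oas1b was at 12.8, 17.4 and 50.5 CPM against 109 and 97.7 CPM, a log2 difference of -2.23 ± 0.51 (edgeR adjusted p = 0.00328). Oas1g was at 9.16, 11.7 and 39.9 CPM against 166 and 149 CPM, and its log2 fold change of -3.23 ± 0.44 (edgeR adjusted p = 0.000136) was again the largest of the family. The highest value of each Oas1 gene among these tumors was in Kit-W/sh tumor 3, and it was still below both preneoplastic samples.

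Oas2 was at 42.4, 69.8 and 134 CPM (lowest, median, highest) in Kit-W/sh tumors and at 137.5 and 137.6 CPM in the preneoplastic samples, a log2 difference of -0.84 ± 0.62 (edgeR adjusted p = 0.286, 95% interval -2.15 to 0.48). Oas3 was at 59.9, 104 and 175 CPM in the tumors and at 172 and 128 CPM in the preneoplastic samples, a log2 difference of -0.45 ± 0.58 (edgeR adjusted p = 0.552, 95% interval -1.68 to 0.78). The groups overlapped for Oas3, whereas for Oas2 the highest tumor lay just below both preneoplastic samples. The mean Oas1 sum was 66.4 ± 39.1 CPM for Kit-W/sh tumors (n = 6), against 339 ± 9.75 CPM (n = 2) for Kit-W/sh preneoplastic colon, a log2 fold change of -2.35 ± 0.42. In all, 3 of 5 members were called lower, against 18.8% of the 869 genes called lower and 20.9% called higher. Groups did not overlap for 4 of 5 members, against 28.7% of genes on the lower side.

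Summed B cell markers were at 18.1 to 122 CPM in Kit-W/sh tumors and at 327 and 151 CPM in Kit-W/sh preneoplastic samples 1 and 2. In the same groups T cell markers summed to 280.03 to 743 and 649.5 to 785 CPM, macrophage markers to 2231 to 3841 and 1249.7 to 1477 CPM, neutrophil markers to 271 to 758 and 7.23 to 15.1 CPM, and Epcam with Car4 to 24476 to 30378 and 88886 to 89656 CPM. Their part in the stage differences was not tested.

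The call for Oas1a in Kit-W/sh mice was the least stable. Its edgeR adjusted p was 0.0983 without preneoplastic sample 1 and 0.152 without preneoplastic sample 2, and 0.0702 with unscaled library totals. With the library labelled Kit-W/sh tumor 2 left out, the 3 Oas1 genes remained called, at log2 fold changes of -1.53 ± 0.51, -2.18 ± 0.54 and -3.15 ± 0.47 for Oas1a, Oas1b and Oas1g. Oas2 and Oas3 were then at -0.91 ± 0.66 and -0.49 ± 0.61.

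**Figure D2:**
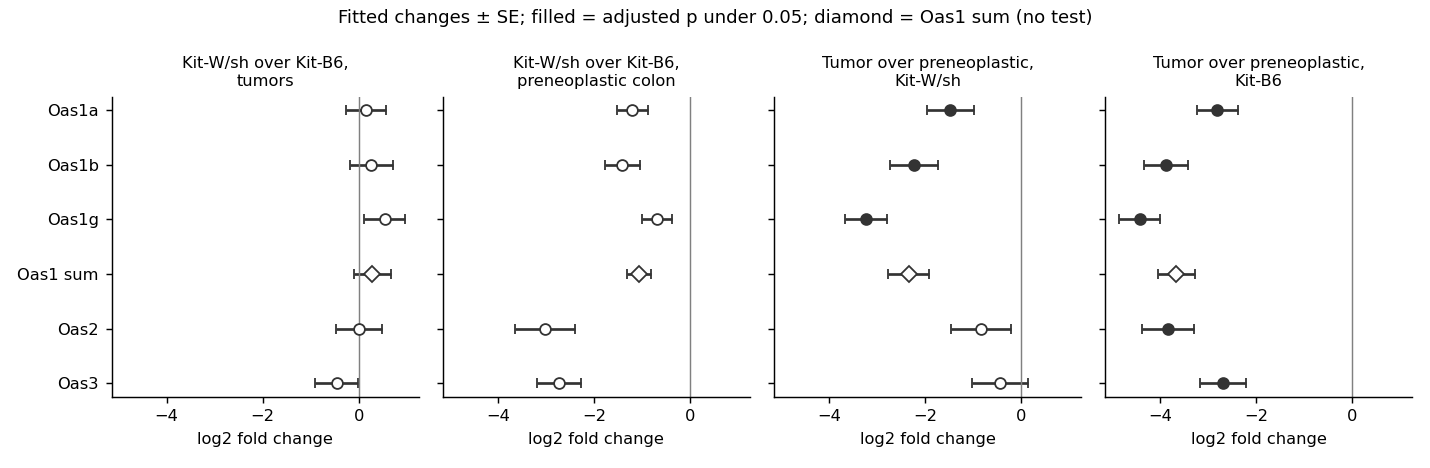
Fitted log2 fold changes with standard errors of each OAS gene (circles) and the Oas1 sum (diamonds, no test) in the 4 comparisons, with filled circles for an edgeR adjusted p under 0.05. All changes are below 0 except some of those between genotypes in tumors, and 5 genes are called in Kit-B6 mice and 3 in Kit-W/sh mice between stages.

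In preneoplastic colon the OAS genes stood lower in both Kit-W/sh samples than in all 3 Kit-B6 samples, and the widest gaps were those of Oas2 and Oas3. Oas2 was at 137.5 and 137.6 CPM in Kit-W/sh samples 1 and 2, against 376, 1429 and 1485 CPM in Kit-B6 samples 1 to 3, which is -3.02 ± 0.63 on the log2 scale (edgeR adjusted p = 0.253). Oas3 was at 172 and 128 CPM in Kit-W/sh, against 495, 1123 and 1294 CPM in Kit-B6, a log2 difference of -2.72 ± 0.46 (edgeR adjusted p = 0.228). For Oas2 the lowest Kit-B6 sample was nearer to the Kit-W/sh samples than to the other Kit-B6 samples.

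The Oas1 genes differed less. Oas1a averaged 77.9 ± 10.5 CPM (SD, n = 2) in Kit-W/sh and 176 ± 41.7 CPM (n = 3) in Kit-B6 preneoplastic colon, a log2 difference of -1.20 ± 0.33 (edgeR adjusted p = 0.313). Oas1b averaged 103 ± 7.64 CPM and 269 ± 82.8 CPM in the same groups, a log2 difference of -1.41 ± 0.36 (edgeR adjusted p = 0.277). Oas1g averaged 158 ± 12.6 CPM and 249 ± 59.9 CPM, a log2 difference of -0.69 ± 0.31 (edgeR adjusted p = 0.467). The Oas1 sum was at 345 and 332 CPM in Kit-W/sh samples and at 500.5, 755 and 828 CPM in Kit-B6 samples, with a log2 fold change of -1.06 ± 0.25 and a 95% interval of -1.67 to -0.46.

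None of the 5 members passed the adjustment in this comparison, in which edgeR called 0% of 777 genes higher and 0.129% lower. Unadjusted p-values were under 0.05 for 4 members, all but Oas1g, and for 83 of the 777 genes. The groups did not overlap for 5 of 5 members, all lower in Kit-W/sh, against 13.4% of genes on the lower side. The median log2 fold change was -1.41 for the members and -0.00778 over all genes. DESeq2 called 20 of the 777 genes, among them 3 members, Oas1b, Oas2 and Oas3. Kit-B6 sample 1 was the lowest of its group for all 5 members. Without that sample edgeR called the same 3 members at adjusted p-values of 0.0403, 0.00044 and 0.00288. With each sample left out in turn, edgeR called 0 to 16 genes in all. The B cell marker sum was 327 and 151 CPM in the Kit-W/sh samples and 152, 2915 and 1009 CPM in the Kit-B6 samples, and its part in the difference was not tested. Against Kit-B6 sample 1 alone, assumed to vary like the others, the log2 fold changes were -1.47 ± 0.90 for Oas2, -1.75 ± 0.86 for Oas3, -0.89 ± 0.80 for Oas1a, -0.78 ± 0.84 for Oas1b and -0.24 ± 0.77 for Oas1g, and 0 genes were called. Mast cell markers summed to 359.9 to 378 CPM in Kit-W/sh samples and to 562 to 794 CPM in Kit-B6 samples. Cpa3, Tpsab1 and Ms4a2 were at 0 in the Kit-W/sh samples. Tpsab1 was also at 0 in the Kit-B6 samples, where Cpa3 had only 3, 6 and 1 counts, against a floor of 3. Kit, the gene altered in Kit-W/sh mice, was itself at 127 and 113 CPM in the Kit-W/sh samples. It was at 268, 343 and 521 CPM in Kit-B6 samples 1 to 3. The part of Kit in the gap between the marker sums was not tested. Of the plasmacytoid dendritic cell list only Bst2 and Irf7 were measured, both themselves induced by interferon, and their sum was 1982 to 2266 CPM in Kit-W/sh and 5199.7 to 9171 CPM in Kit-B6 samples.

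In tumors no member's difference between the genotypes exceeded the spread between samples, and the ranges of all 5 overlapped. For Oas2 the lowest, median and highest values were 42.4, 69.8 and 134 CPM among Kit-W/sh tumors, against 31.5, 49.3 and 200.5 CPM among Kit-B6 tumors. Log2 fold changes (Kit-W/sh over Kit-B6) were 0.16 ± 0.41 for Oas1a, 0.26 ± 0.45 for Oas1b and 0.54 ± 0.42 for Oas1g. They were -0.00072 ± 0.48 for Oas2 and -0.46 ± 0.44 for Oas3. The 95% intervals reached from -0.74 to 1.05 for Oas1a, -0.71 to 1.23 for Oas1b, -0.37 to 1.45 for Oas1g, -1.03 to 1.02 for Oas2 and -1.42 to 0.50 for Oas3. The edgeR adjusted p-values lay between 0.592 for Oas1g and 0.999 for Oas2.

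Mean Oas1 sums were 66.4 ± 39.1 CPM for Kit-W/sh and 54.8 ± 22.6 CPM for Kit-B6 tumors, with a log2 fold change of 0.28 ± 0.38. Across the panel, groups without overlap were found for 0.626% of 799 genes on the higher side and 0% on the lower. The edgeR test called 0% of genes, with 109 at an unadjusted p under 0.05, and DESeq2 called 24, of which 0 were members. Single tumors set the sign or size of several values. Without Kit-W/sh tumor 3 the log2 fold change was -0.14 for Oas1a, -0.21 for Oas1b, 0.044 for Oas1g and -0.13 for the Oas1 sum. Without Kit-B6 tumor 6 it was 0.55 for Oas2 and 0.01 for Oas3. Without the library labelled Kit-W/sh tumor 2 the changes lay between -0.52 for Oas3 and 0.61 for Oas1g.

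Whether the genotype difference itself changed with stage was tested as an interaction, where a positive value means a higher Kit-W/sh over Kit-B6 ratio in tumors than in preneoplastic colon. It was 3.00 ± 0.90 for Oas2 (edgeR unadjusted p = 0.00402, adjusted p = 0.66) and 2.25 ± 0.81 for Oas3 (unadjusted p = 0.0134, adjusted p = 0.66). The Oas1 genes gave 1.34 ± 0.69 for Oas1a, 1.65 ± 0.74 for Oas1b and 1.20 ± 0.66 for Oas1g. All 5 were positive, and edgeR called 0% of 869 genes in either direction, with 63 at an unadjusted p under 0.05 and 1 called by DESeq2. The stage differences of Oas2 and Oas3 in Kit-B6 mice, called there and not in Kit-W/sh mice, are thus not shown to differ between genotypes. Without the library labelled Kit-W/sh tumor 2 the interaction was 2.93 ± 0.93 for Oas2, 2.20 ± 0.84 for Oas3, 1.29 ± 0.71 for Oas1a, 1.70 ± 0.76 for Oas1b and 1.27 ± 0.67 for Oas1g. The fits share the preneoplastic libraries, so these values and those of the separate comparisons are not independent.

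Tumors and preneoplastic colon also stood apart in how the Oas1 sum was made up, although no share passed the adjustment over 12 tests. Oas1a made up 44.8% ± 3.92 (SD, n = 6) of the sum in Kit-B6 tumors and 25.7% ± 3.63 (n = 3) in Kit-B6 preneoplastic colon, and it made up 42.8% ± 8.41 (n = 6) in Kit-W/sh tumors and 23.1% ± 3.75 (n = 2) in Kit-W/sh preneoplastic colon. Every tumor had a larger Oas1a share than every preneoplastic sample, with 29.8% the lowest in a tumor and 28.6% the highest in preneoplastic tissue. The two-sided exact permutation p was 0.0119 in Kit-B6 and 0.0357 in Kit-W/sh, in each case the smallest possible, and 0.143 for both after adjustment over the 12 share tests.

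The Oas1g share was on the other side, at 22.6% ± 8.23 of the sum in Kit-B6 tumors and 35.9% ± 0.95 in Kit-B6 preneoplastic colon (exact permutation p = 0.0595, adjusted p = 0.179). Its share was 24.5% ± 3.45 in Kit-W/sh tumors and 46.5% ± 2.37 in Kit-W/sh preneoplastic colon (exact permutation p = 0.0357, adjusted p = 0.143). In preneoplastic colon the Oas1g share was 48.2% and 44.8% in Kit-W/sh samples and 36.6%, 34.9% and 36.3% in Kit-B6 samples. These groups did not overlap, and the exact permutation p of 0.1 is the smallest that 2 against 3 samples allow. Oas1b varied least with stage, with mean shares of 32.7% in Kit-W/sh tumors, 32.6% in Kit-B6 tumors, 30.4% in Kit-W/sh preneoplastic colon and 38.3% in Kit-B6 preneoplastic colon. Without the library labelled Kit-W/sh tumor 2, the Kit-W/sh stage differences were 17.8 points for the Oas1a share and -21.0 points for the Oas1g share. Shares of Oas1a and Oas1g rest on amplicons of near-identical transcripts and describe the deposited assignment of reads.

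**Figure D3:**
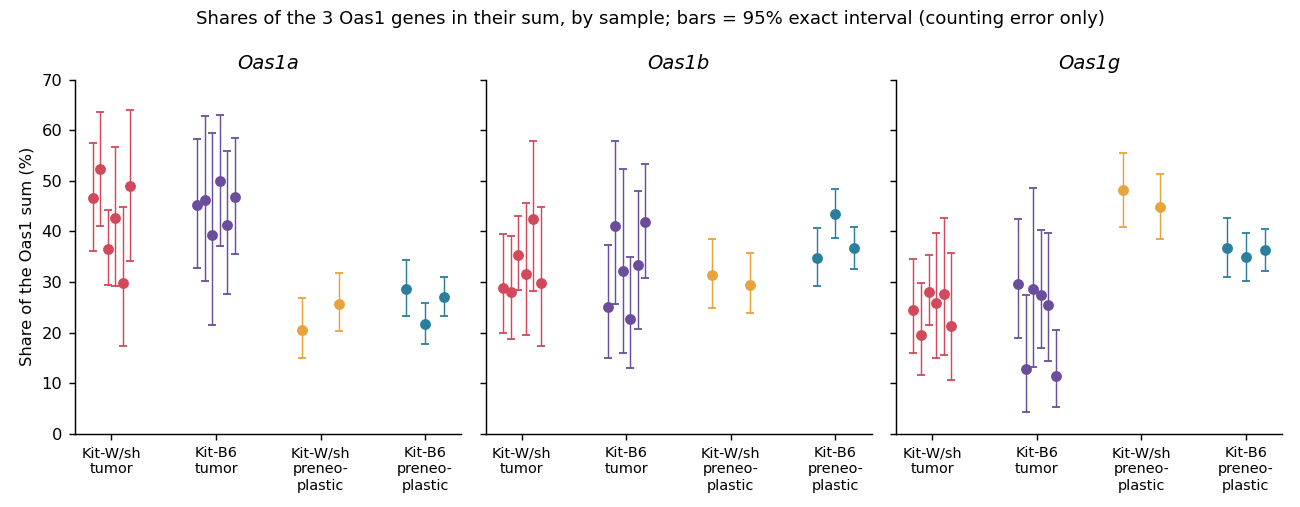
Share of each Oas1 gene in the Oas1 sum for every sample, in percent, with 95% exact binomial intervals that cover counting error only. Oas1a takes a larger share in tumors of both genotypes than in preneoplastic colon, and Oas1g a smaller one.

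Of 6 further OAS genes on the panel, 2 were tested. Oas1c, a relative without known synthetase activity, averaged 47.8 ± 23.6 CPM (Kit-W/sh tumors), 54.6 ± 16.8 CPM (Kit-B6 tumors), 92.7 ± 4.53 in Kit-W/sh preneoplastic colon and 146 ± 21.5 CPM in Kit-B6 preneoplastic colon. Oasl1, an OAS-like protein that in the mouse restrains translation of Irf7, averaged 254 ± 93.1, 363 ± 249, 437 ± 46.4 and 1035 ± 363 CPM in the same groups and order. Both fell in Kit-B6 tumors, with log2 fold changes of -1.42 ± 0.37 for Oas1c (edgeR adjusted p = 0.00701) and -1.52 ± 0.46 for Oasl1 (edgeR adjusted p = 0.015). In Kit-W/sh mice their log2 fold changes of -0.95 ± 0.43 and -0.78 ± 0.53 did not pass (edgeR adjusted p = 0.0859 and 0.241). Oas1d gave between 0 and 7.33 CPM, Oas1f 2 counts in all, and Oas1e and Oas1h 0 counts in 17 libraries, all at or near the floor of 3 counts.

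Upstream of the OAS genes in the interferon pathway, only 3 listed ligands were on the panel, and these were barely detected. The listed ligands Ifna1, Ifna4, Ifnk, Ifnl2 and Ifnl3 were not measured, so nothing is known of them here. Ifna2 had 0 counts in all 17 libraries, against a floor of 3 counts, and Ifnb1 had 3 counts in all, in Kit-W/sh tumor 2 and Kit-B6 preneoplastic samples 1 and 3. Ifng, the type II interferon, had at most 7 counts in a library, and no ligand entered a test.

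Of the interferon pathway list, chosen by role, 44 of 89 genes were measured and 40 tested between stages. In Kit-B6 mice 15 fell and 3 rose in tumors, with a list median log2 fold change of -0.65, and in Kit-W/sh mice 13 fell and 2 rose, with a median of -0.69. Over all 869 genes, 18.9% were called lower and 22.2% higher in Kit-B6, and 18.8% and 20.9% in Kit-W/sh. Without the library labelled Kit-W/sh tumor 2, 14 fell and 2 rose in Kit-W/sh mice, with a median of -0.80. Each median was smaller in size than the change of every OAS gene in Kit-B6 mice and of the Oas1 genes in Kit-W/sh mice. Among the factors, Irf1, an interferon-induced activator, fell in tumors of both genotypes, at -1.28 ± 0.22 in Kit-B6 and -1.77 ± 0.25 in Kit-W/sh on the log2 scale (edgeR adjusted p = 0.000419 and 0.000136). Irf7, which amplifies type I interferon production, fell by 1.99 ± 0.47 in Kit-B6 tumors (edgeR adjusted p = 0.00379), and its log2 fold change of -0.69 ± 0.55 in Kit-W/sh mice did not pass (edgeR adjusted p = 0.321). Irf9, the DNA-binding subunit of the complex that acts on OAS promoters, fell by 0.66 ± 0.17 in Kit-B6 tumors (edgeR adjusted p = 0.00726) and had -0.35 ± 0.20 in Kit-W/sh (adjusted p = 0.174).

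Antiviral effectors and nucleic acid sensors moved in both directions. Adar, an RNA-editing enzyme of double-stranded RNA, fell by 1.20 ± 0.21 in Kit-B6 and by 0.98 ± 0.24 in Kit-W/sh tumors (edgeR adjusted p = 0.000446 and 0.0052). Bst2 (tetherin) fell by 1.19 ± 0.39 in Kit-B6 tumors (edgeR adjusted p = 0.0238) and was at 0.54 ± 0.48 in Kit-W/sh (adjusted p = 0.38). Ifitm3, which blocks viral entry, rose in tumors by 2.11 ± 0.36 in Kit-B6 and by 3.31 ± 0.46 in Kit-W/sh (edgeR adjusted p = 0.000319 and 0.000136). Tmem173 (STING), the adaptor of cytosolic DNA sensing, rose by 2.59 ± 0.39 and by 2.66 ± 0.47 (edgeR adjusted p = 0.000136 and 0.000608). Ikbke, a kinase that activates IRF factors, fell by 1.39 ± 0.21 and by 1.32 ± 0.24 (edgeR adjusted p = 0.000136 and 0.000673). Without the library labelled Kit-W/sh tumor 2, the Kit-W/sh calls of Irf1, Irf7, Irf9, Adar, Bst2, Ifitm3, Tmem173, Ikbke, Oas1c and Oasl1 did not change, and the value that moved most was that of Irf7, to -1.02 ± 0.50 (edgeR adjusted p = 0.11).

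**Figure D4:**
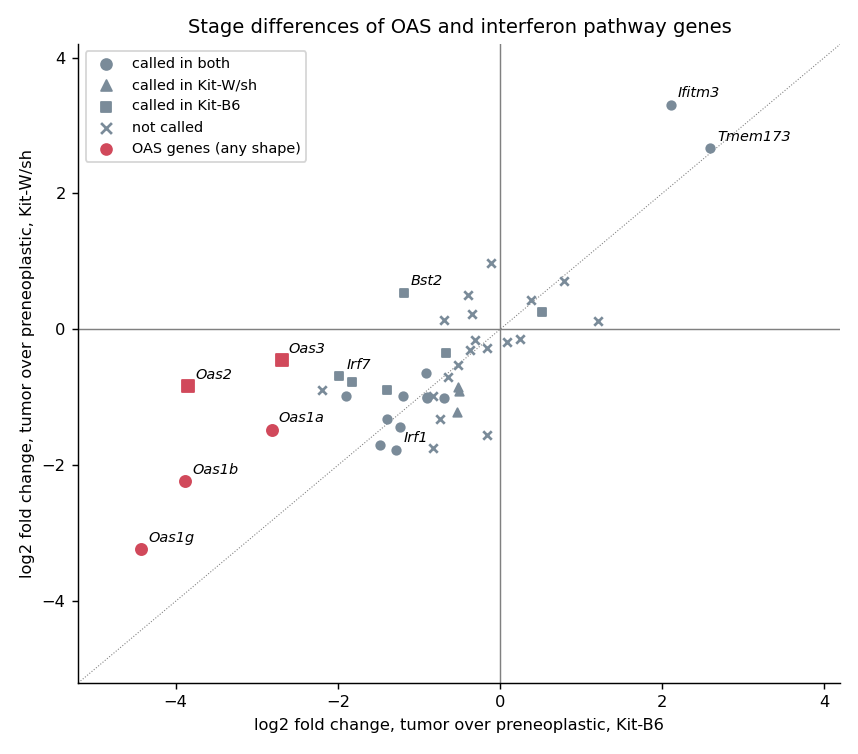
Log2 fold change between tumor and preneoplastic colon in Kit-B6 mice (horizontal) and Kit-W/sh mice (vertical) for the 5 OAS genes (red) and 40 interferon pathway genes (grey), with marker shapes for edgeR calls in both, either or neither genotype and a dotted line of equal change. All 5 OAS genes lie in the lower left and above the dotted line, while Ifitm3 and Tmem173 lie in the upper right.

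Between genotypes in preneoplastic colon, 1 of 39 tested pathway genes was called, and the list's median log2 fold change of -0.00942 was near 0. The called gene was Irf7, at 1078 ± 116 CPM in Kit-W/sh and 4468 ± 585 CPM in Kit-B6 samples, a log2 difference of -2.07 ± 0.20 (edgeR adjusted p = 0.0237). Its log2 fold change lay between -2.21 and -1.86 under the alternatives, but the call was lost with unscaled totals (edgeR adjusted p = 0.0553), the replicate block (0.783), the 4-group fit (0.489), Kit-B6 samples 2 and 3 left out (1), and without Kit-W/sh sample 1 (0.767), Kit-W/sh sample 2 (0.436) or Kit-B6 sample 3 (0.166). Irf9 differed by -0.50 ± 0.18 and Sp100, a nuclear body protein, by -1.43 ± 0.24 (edgeR adjusted p = 0.443 and 0.228). All 4 measured antiviral effectors were below 0 in this comparison, from -0.50 ± 0.19 for Adar to -1.65 ± 0.60 for Ifit3, and 0 were called. Irf1 was on the opposite side, at 0.56 ± 0.16 (edgeR adjusted p = 0.327). Of the 39 tested pathway genes, 19 lay above 0 and 20 below. The other interferon-induced genes, the role that holds Sp100, had 4 above and 4 below, with a median of 0.10. Of the 5 JAK-STAT signalling genes, 4 lay above 0 and 1 below. In tumors 0 of 38 tested pathway genes were called between genotypes.

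Among the 12 tumors the OAS genes varied together to different degrees. Pearson's r of log2(CPM + 1) over the 10 pairs of members ran from 0.25 (Oas1g with Oas3) to 0.92 (Oas1b with Oas2). Oas2 and Oas3 had r = 0.89 and Spearman's rho = 0.78, and r was 0.76 without the 2 tumors farthest from the median family mean, Kit-W/sh tumor 3 and Kit-B6 tumor 6. Oas1a and Oas1g, the pair with near-identical transcripts, had r = 0.63. Oas1g and Oas1b had r = 0.55, and 0.11 without those 2 tumors, so that relation rested on them. In Kit-W/sh tumor 3 all 5 members were the highest of their group, while in Kit-B6 tumor 6 this held for Oas1a, Oas1b, Oas2 and Oas3 and Oas1g was at 10.6 CPM, near the group median.

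Of 794 other genes in the tumors, the 5 most like the family mean were H2-T24 (r = 0.88, rho = 0.79), Ifit3 (0.81 and 0.88), Zbp1 (0.81 and 0.85), Adar (0.76 and 0.80) and Oas1c (0.75 and 0.80). H2-T24 is a nonclassical MHC class I gene whose reads may be shared with close relatives, Ifit3 an interferon-induced antiviral protein and Zbp1 a sensor of left-handed nucleic acids. Without the 2 outlying tumors r was 0.70 for H2-T24, 0.82 for Ifit3, 0.86 for Zbp1, 0.73 for Adar and 0.68 for Oas1c. Without the library labelled Kit-W/sh tumor 2, r was 0.88, 0.81, 0.82, 0.77 and 0.75 in the same order, and the member pairs ran from 0.26 to 0.94. With genotype means removed it was 0.88, 0.85, 0.82, 0.86 and 0.81 in the same order. Irf7 ranked at 13 (r = 0.69) and Irf9 at 14 (0.68). These correlations are descriptions over 12 libraries that share a depth scaling, and the genes were picked as the closest of many.

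**Figure D5:**
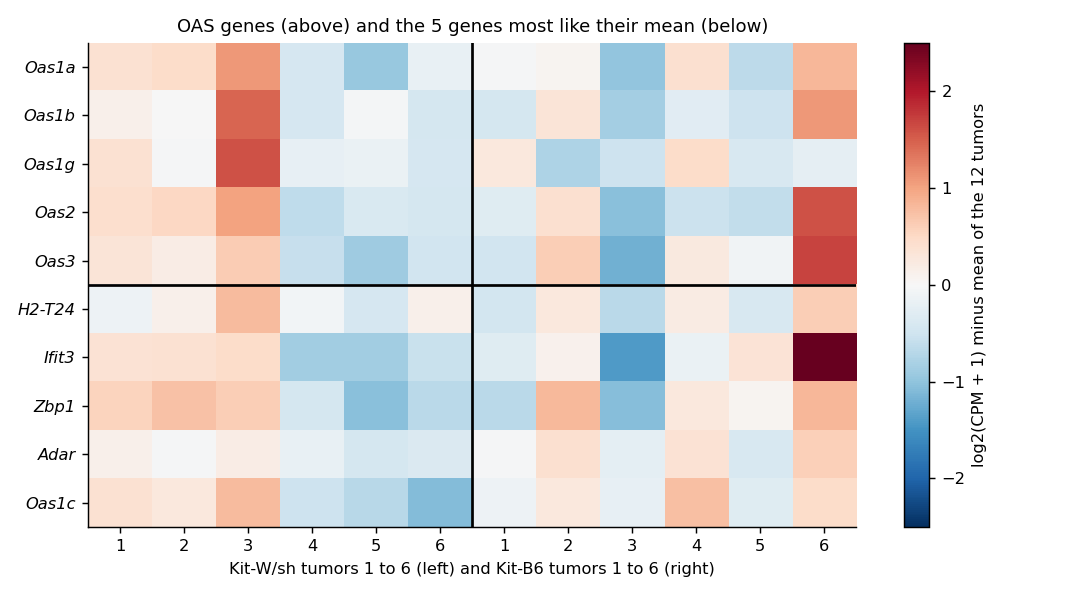
Log2(CPM + 1) of the 5 OAS genes (upper rows) and the 5 genes most like their mean (lower rows) in each tumor, minus the gene's mean over the 12 tumors, for Kit-W/sh tumors (left) and Kit-B6 tumors (right). Kit-W/sh tumor 3 and Kit-B6 tumor 6 are red for most rows, and Kit-B6 tumor 3 is blue for all of them.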

How the data were processed

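RNA of 17 mouse colon samples was measured with a targeted amplicon panel of 988 genes. The deposited values are raw counts per gene, per the file headers, and 5 control amplicons for genomic DNA held 0 counts. The submitters' processing notes name mm9 and DESeq2 without their role. The aligner, counter and strand setting are not given in the sources used here, nor whether reads or molecular tags were counted, so intervals and floors cover counting error only. No 2 libraries of the same group agreed within sampling noise (smallest chi-square per degree of freedom 13.0). Libraries of different groups were not compared in this way.

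Counts were tested with edgeR 4.0.16 in R 4.3.3 by the quasi-likelihood test with TMM scaling, after a filter on low counts (minimum 10, minimum total 15), and with Benjamini-Hochberg adjustment over all genes tested at a threshold of 0.05. Genotypes were compared within their own stage, and stage and interaction were taken from 1 fit of 4 groups. The Oas1 sum replaced its 3 genes in a fit of its own and received no p. Oas1 shares were compared by 2-sided exact permutation tests with adjustment over 12. DESeq2 1.42.0, other scalings, no filter, a replicate block, Kit-B6 tumors 4 and 5 summed, each sample left out and, chosen after seeing the data, Kit-B6 preneoplastic samples 2 and 3 left out for their B cell markers were tried as alternatives. Pathway genes and correlations without the library labelled Kit-W/sh tumor 2, and Irf7 under each alternative, were also added after seeing the data. Scripts were tested on simulated data. Promoters came from RefSeq (GRCm38.p6) and transcripts from GENCODE M21, aligned with Biopython 1.88; the files hold no coordinates.

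The members, gene lists and cell markers were chosen with earlier results of these data known. Pathway genes named in the text are, per role and comparison, among the 4 with the smallest p, plus Irf7 and Irf9, and some genes under that rule are not reported here; genes most like the family mean are the first 5 by Pearson's r in tumors.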

Additional observations from a re-analysis of the deposited data

Results flagged for a closer look

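Within the groups of 6 tumors, 4 values stood apart from the rest of their group, with a gap to the next sample that, as a part of the whole range, exceeded Dixon's 95% critical value for 6 samples. Kit-W/sh tumor 3 had 50.5 CPM of Oas1b (next highest 19.6 CPM, gap over range 0.82), 39.9 CPM of Oas1g (next 16.6 CPM, 0.76) and an Oas1 sum of 143 CPM (next 67.9 CPM, 0.73). Kit-B6 tumor 6 had 200.5 CPM of Oas2 (next 88.0 CPM, 0.67). The Oas1 sum contains Oas1b and Oas1g, so those values are not separate. Chance flags about 1 in 20 groups where values are normally distributed, and 12 sets of 6 values were examined. The rule was applied to CPM without logs, and in all 12 sets the larger end gap was at the highest sample. The rate of 1 in 20 may therefore not hold here, and the flags are descriptions only.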

How the results depend on the processing

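Samples were not treated as paired by number. Same-numbered samples correlated at -0.23 to 0.40 in tumors, -0.18 to -0.11 in preneoplastic colon, -0.033 to 0.41 between Kit-B6 stages and -0.13 to 0.082 between Kit-W/sh stages. Differently numbered samples were not correlated, so these values cannot decide whether the numbers mark pairs. With the replicate block, 276 genes were called between stages in Kit-B6 and 250 in Kit-W/sh (5 and 2 members lower), 0 in the other comparisons, and Oas1a in Kit-W/sh was at -1.45 (edgeR adjusted p = 0.0574). Oas1a there was at -1.20 with unscaled totals and -1.31 with reference gene scaling, which called 180 genes. That scaling rested on only 2 measured reference genes of 14 listed. Oas2 between genotypes in tumors changed sign with unscaled totals (0.015), the replicate block (0.17) and the 4-group fit (0.0095). DESeq2 called 24 genes between genotypes in tumors, 20 in preneoplastic colon, 3 of them members (Oas1b -1.41, Oas2 -3.02, Oas3 -2.72), and 1 for the interaction. In preneoplastic colon Irf7 lost its call, and 0 genes were called, with unscaled totals, the replicate block, the 4-group fit or samples 2 and 3 of Kit-B6 left out. Without those samples Oas3 was at -1.73 between Kit-B6 stages, with 130 genes called. The cause of these changes was not tested. Unscaled totals moved the median of all genes to 0.24 in Kit-B6 and 0.34 in Kit-W/sh between stages, and reference gene scaling to 0.18 and 0.23.

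With each sample left out in turn, log2 changes between genotypes in tumors ran from -0.14 to 0.38 (Oas1a), -0.21 to 0.61 (Oas1b), 0.044 to 0.67 (Oas1g), -0.27 to 0.55 (Oas2), -0.68 to 0.011 (Oas3) and -0.13 to 0.49 (Oas1 sum). In preneoplastic colon they ran from -1.64 to -1.24 (Oas1b), -3.43 to -2.77 (Oas2) and -3.04 to -2.49 (Oas3), with 0 to 3 members and 0 to 16 genes called. Between Kit-W/sh stages Oas1a ran from -1.74 to -1.32 and 132 to 367 genes were called, and the interaction called 0 to 2. Share differences in tumors ran from -3.88 to 0.647 points (Oas1a), -1.96 to 1.88 (Oas1b) and -0.328 to 3.33 (Oas1g). The Oas1a share ran from -5.31 to 0.002 points in preneoplastic colon and 17.1 to 22.4 between Kit-W/sh stages, and the Oas1g share from -14.8 to -11.1 between Kit-B6 stages and -23.7 to -20.3 between Kit-W/sh stages. Over all results and alternatives, 21 values changed sign, 11 lost a call, 8 gained one and 18 counts moved by over 1.5 times, and 863 did none of these. The members called lower were 4 to 5 between Kit-B6 stages and 2 to 3 between Kit-W/sh stages.

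The Oas1 sum rested on 28 to 175 counts in a tumor library, which limits the precision of the shares there.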
